A study of Mus musculus with 6 samples.

Results

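The mitotic kinesins described here are 10 motor protein genes that work on the spindle of dividing cells: Kif11, Kif14, Kif15, Kif18a, Kif20a, Kif20b, Kif22, Kif23, Kif2c and Kif4. They were found by symbol, and all 10 are among the 24062 genes of the count table. The measurements are RNA-seq counts from mouse retinae at P21 (postnatal day 21), labelled C57BL/6 and given as C57BL/6N in the study's methods, with 3 libraries in each of 2 groups. In the first group, Rb1/p107 DKO (double knockout), Chx10-Cre acted on Rb1 lox/lox in p107-/- mice. In the second, Rb1/p107/Hells TKO (triple knockout), the mice carried the same alleles and in addition Hells lox/lox, so the groups share the loss of Rb1 and p107 and differ in Hells. Chx10-Cre is expressed in retinal progenitor cells in a mosaic pattern, so each retina also holds cells that were not recombined for the floxed alleles, whereas p107 is lost in every cell. No retina without these deletions was analysed here. The comparison asks how the retina that has lost Rb1 and p107 differs when Hells, a chromatin remodeller of the SNF2 family, is removed as well.

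Kinesins are motor proteins that use ATP to walk along microtubules or to take their ends apart. In mitosis, different members of the family push the spindle poles apart, move chromosomes and correct their attachments, bundle the microtubules between the separating chromosomes, and help to cut the daughter cells apart. Their genes are transcribed mainly late in the cell cycle, under the control of DREAM in resting cells and of MuvB with B-MYB and FOXM1 in cycling cells, which reach many of these promoters through an element called CHR. Mouse retinal neurons have left the cell cycle by this age, and loss of Rb1 and p107 leads to ectopic division and to retinoblastoma in this model.

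The promoters of the members are shown first, because the CHR element lies near the transcription start in most of them. In RefSeq windows of GRCm38.p6 that run from 250 bases before to 50 bases after each transcription start, 9 of the 10 members had an entry. TTTGAA, the letters searched for the CHR on both strands, was found in 8 of the 9 member windows, against 17.89% of all 32851 windows. Within 30 bases of the start it was found in 6 of the 9, in Kif11, Kif15, Kif20b, Kif22, Kif23 and Kif4, against 2.9% of all windows. The sequences below run from 70 bases before to 30 bases after the start, 5′ to 3′ on the strand of the gene. The first 5 are members with a CHR near the start, and Kif18a is shown because it has an E2F core in that place instead. Capitals mark TTTGAA or its reverse complement TTCAAA, the CCAAT box or its reverse complement ATTGG, and the E2F core, for which the search took TTCCCGC and also its forms TTGGCGC, then TTGCCGC and likewise TTCGCGC on either strand. The motifs marked do not overlap each other.
Kif11, chr19:37376312-37376411, plus strand: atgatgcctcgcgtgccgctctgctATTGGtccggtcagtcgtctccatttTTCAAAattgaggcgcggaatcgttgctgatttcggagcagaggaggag
Kif15, chr9:122951011-122951110, plus strand: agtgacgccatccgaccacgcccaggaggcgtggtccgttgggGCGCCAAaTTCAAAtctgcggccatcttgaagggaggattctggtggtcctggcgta
Kif20b, chr19:34922288-34922387, plus strand: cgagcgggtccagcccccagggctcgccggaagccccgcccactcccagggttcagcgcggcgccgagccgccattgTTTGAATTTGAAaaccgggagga
Kif22, chr7:127042391-127042490, minus strand: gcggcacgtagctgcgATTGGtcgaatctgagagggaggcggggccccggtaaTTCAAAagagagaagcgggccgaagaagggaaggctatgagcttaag
Kif23, chr9:61946770-61946869, minus strand: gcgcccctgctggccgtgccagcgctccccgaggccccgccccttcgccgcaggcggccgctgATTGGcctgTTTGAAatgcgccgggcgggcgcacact
Kif18a, chr2:109280668-109280767, plus strand: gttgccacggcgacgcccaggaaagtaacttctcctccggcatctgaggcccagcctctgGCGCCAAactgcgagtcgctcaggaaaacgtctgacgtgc

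In Kif11, Kif15 and Kif22 the CHR was read on the opposite strand and ended 14, 14 and 12 bases before the start. Kif20b had 2 copies in direct succession, at bases 8 to 13 and 14 to 19 after the start, while the copies of Kif23 and Kif4 began 3 and 20 bases after it. Kif2c and Kif14 held TTTGAA only farther away, with its inner end 98 and 223 bases before the start, and Kif18a had none in its window. A CCAAT box, the letters bound by NF-Y, was in 5 of the 9 windows, those of Kif11, Kif14, Kif22, Kif23 and Kif4, against 37.41% of all windows. CHR near the start together with a CCAAT box anywhere in the window was found in 4 of 9, against 1.23% of all windows. The E2F core was in 2 of 9, Kif15 and Kif18a, against 9.57%, and the AT-rich CHR variant TTTAAA in 2 of 9, Kif14 and Kif2c, against 13.16%. A match says only that these letters are present. The RefSeq start lies 3867 bases inside the GENCODE gene for Kif2c, 1505 for Kif14 and 328 for Kif4, so the windows of these 3 members are not at the outermost annotated start.

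**Figure D1:**
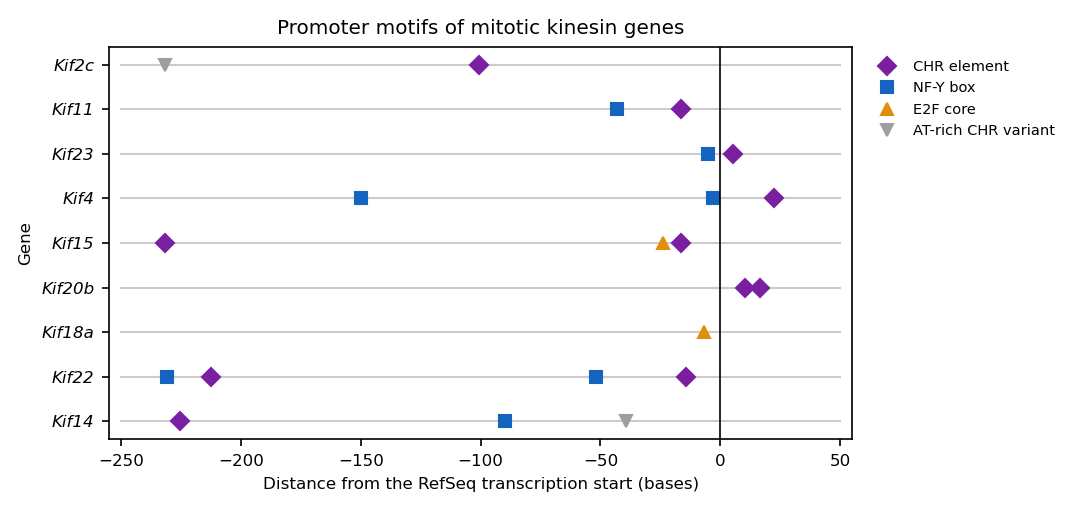
Positions of promoter motifs in the 9 members with a RefSeq window. The horizontal axis is the distance from the RefSeq transcription start in bases, the vertical axis lists the genes, and symbols mark the CHR element, the NF-Y (CCAAT) box, the E2F core and the AT-rich CHR variant. The CHR lies within 30 bases of the start in 6 of the 9 genes.

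Hells, the gene deleted in the TKO only, was at 60.8, 68.4 and 83.4 normalized counts in the TKO libraries and at 678, 523 and 395 in the DKO libraries (replicates 1, 2 and 3 here and below). Normalized counts are raw counts scaled by edgeR's TMM method. The TKO level was 70.9 ± 11.5 (SD, n = 3) against 531.6 ± 141.7 (SD, n = 3), a log2 fold change of -2.91 (SE 0.225) with an adjusted p of 0.00359 by edgeR's quasi-likelihood test with Benjamini-Hochberg adjustment. The groups did not overlap, and the direction is the one the labels give. The floxed allele loses only part of the gene, and the study describes Hells as under transcriptional control of RB/E2F. How much of this fall comes from the deletion itself was not tested. Total counts per library ran from 10343907 to 14203098. Markers of retinal neurons and Muller glia were present in all 6 libraries.

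All 10 mitotic kinesins fell in the TKO. Each had a log2 fold change of at most -1, an adjusted p of at most 0.05 and a mean count of at least 10, the rule for a gene called lower, which 4.38% of the 16904 genes tested met. None of the 10 was called higher, as 1.97% of all genes were, and by the adjusted p alone the same 10 fell, against 9.20% of all genes. Every TKO library was below every DKO library for 10 of 10 members, against 20.6% of all genes tested. The median log2 fold change of the members was -1.71, ranging from -3.04 in Kif2c to -1.23 in Kif14, against a median of -0.01 over all genes. The mean TKO level was between 12.3% (Kif2c) and 42.9% (Kif14) of the mean DKO level. In bulk retina, fewer dividing cells and less kinesin RNA per cell cannot be told apart. The plot of counts by library shows each member in the 6 retinae.

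**Figure D2:**
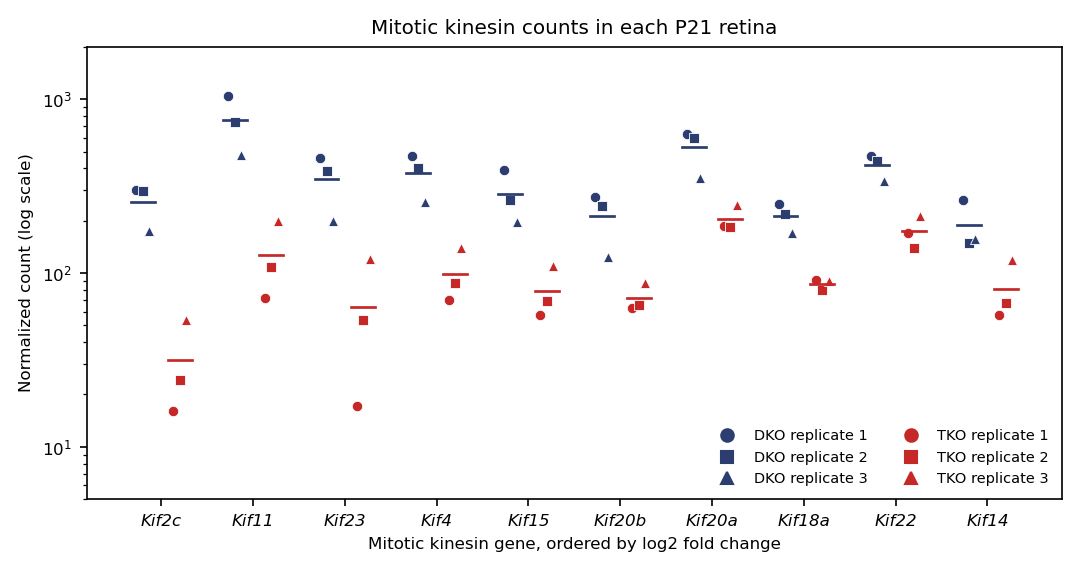
TMM-normalized counts (vertical axis, log scale) of the 10 mitotic kinesins in the 3 DKO (blue) and 3 TKO (red) P21 retinae, with horizontal lines at the group means. Genes are ordered from the largest to the smallest fall, and no TKO point reaches the lowest DKO point of its gene.

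Both kinesins that keep the spindle bipolar fell. Kif11, the motor that crosslinks microtubules of opposite direction and slides the poles apart, was at 72.2, 108 and 199 normalized counts in the TKO and at 1047, 742 and 480.1 in the DKO. The highest TKO library reached 41.4% of the lowest DKO library. Kif11 averaged 126 ± 65.2 against 756 ± 284 (SD, n = 3), which gave a log2 fold change of -2.59 (SE 0.384) with an adjusted p of 0.00733 by edgeR's quasi-likelihood test. Kif11 lies on chromosome 19 (37376403-37421859, plus strand, GRCm38), 1.509 Mb from Hells. Kif15, which stays on parallel microtubules and can hold the spindle bipolar beside Kif11, was at 57.3, 69.5 and 110.4 in the TKO and at 392, 263 and 197 in the DKO. These groups did not overlap either, and TKO replicate 3 and DKO replicate 3 were the nearest libraries. The Kif15 means were 79.1 ± 27.8 and 284 ± 99.0, a log2 fold change of -1.84 (SE 0.312, adjusted p = 0.00963, edgeR). Without TKO replicate 2 the adjusted p of Kif15 was 0.0503.

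Among the kinesins that act on chromosomes and on microtubule ends, Kif2c had the largest fall of all members. Kif2c takes microtubules apart from their ends and releases wrong attachments at the centromere. It was at 16.1, 24.2 and 54.0 normalized counts in the TKO (14, 23 and 44 reads) and at 299, 295 and 174 in the DKO. All 3 DKO libraries were at least 3 times the highest TKO library, which reached 31.1% of the lowest DKO library. The means were 31.4 ± 20.0 and 256 ± 71.4, a log2 fold change of -3.04 (SE 0.402, adjusted p = 0.00681, edgeR), and of -3.65 without TKO replicate 3.

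Kif18a, which gathers at the plus ends of kinetochore microtubules and damps the swinging of chromosomes, was at 90.6, 80.0 and 89.6 in the TKO and at 250.3, 218 and 169 in the DKO. Its TKO libraries lay closest together of all members, with the highest 1.13 times the lowest. Means of 86.7 ± 5.85 and 212 ± 40.8 gave a log2 fold change of -1.29 (SE 0.180, adjusted p = 0.00691, edgeR). Kif22, a chromokinesin that pushes chromosome arms away from the poles, was at 169.7, 139 and 214 in the TKO and at 473, 440.4 and 338 in the DKO. The groups were separate, with a mean of 174 ± 37.5 against 417 ± 70.3 and a log2 fold change of -1.26 (SE 0.188, adjusted p = 0.00733, edgeR). Kif4, a chromokinesin that binds condensin and later limits the growth of midzone microtubules together with Prc1, was at 70.0, 87.4 and 139.9 in the TKO. In the DKO it was at 469.6, 402 and 256, again with no overlap. Its means were 99.1 ± 36.4 and 376 ± 109, a log2 fold change of -1.93 (SE 0.296, adjusted p = 0.00766, edgeR).

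The kinesins of the midzone and of cytokinesis fell as well, and this group holds the members with the least secure calls. Kif23, the motor of centralspindlin, was at 17.2, 53.7 and 120.3 normalized counts in the TKO (15, 51 and 98 reads) and at 461, 386 and 200.3 in the DKO. The TKO libraries of Kif23 were the most spread of any member, with the highest 6.99 times the lowest, but still did not reach the DKO. The means were 63.7 ± 52.3 and 349 ± 134, a log2 fold change of -2.46 (SE 0.553, adjusted p = 0.0214, edgeR). Without TKO replicate 3 the log2 fold change was -3.27. Leaving out DKO replicate 1 gave an adjusted p of 0.0799, DKO replicate 2 gave 0.0785 and TKO replicate 2 gave 0.0898, and robust dispersion estimates gave 0.0635.

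Kif20a, which carries the Aurora B passenger complex to the midzone, was at 187, 183 and 248 in the TKO and at 633, 602 and 353 in the DKO. TKO replicate 3 reached 70.2% of DKO replicate 3, the lowest of its group. Kif20a averaged 206 ± 36.3 against 529.6 ± 153.6, a log2 fold change of -1.36 (SE 0.231, adjusted p = 0.00973, edgeR), and without TKO replicate 2 the adjusted p was 0.0503. Kif20b, a relative of Kif20a needed late in cytokinesis and for normal brain size, was at 63.1, 65.3 and 87.1 in the TKO and at 273, 243 and 123 in the DKO. DKO replicate 3 stood nearest to the TKO, whose highest library reached 70.6% of it. The Kif20b means were 71.8 ± 13.3 and 213 ± 79.2, a log2 fold change of -1.57 (SE 0.302, adjusted p = 0.0132, edgeR). When DKO replicate 1, DKO replicate 2 or TKO replicate 2 was left out, its adjusted p was 0.0546, 0.0594 or 0.0629. Kif20b lies on chromosome 19 (34922361-34975745, plus strand), 3.955 Mb from Hells.

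Kif14, which binds citron kinase and Prc1 and acts in the last steps of cytokinesis, had the smallest fall. It was at 57.3, 67.4 and 119 in the TKO and at 263, 149.7 and 156 in the DKO. TKO replicate 3 came to 79.5% of the lowest DKO library, the narrowest gap of any member. Means of 81.2 ± 33.1 and 189.5 ± 63.4 gave a log2 fold change of -1.23 (SE 0.321, adjusted p = 0.0362, edgeR). It passed in 2 of the 6 fits that left out a library, and its adjusted p was 0.120 or 0.0716 when DKO replicate 1 or 2 was removed and 0.107 or 0.128 when TKO replicate 1 or 2 was removed. Kif11, Kif18a, Kif22, Kif2c and Kif4 were called lower in each of the 6 fits that left out a library, and without TKO replicate 2 these 5 were the ones that passed.

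The 10 members moved together across libraries within each group, and so did the other lists of cell cycle genes described below. DKO replicate 1 had the highest level of its group for all 10, and DKO replicate 3 the lowest for 9, the exception being Kif14. TKO replicate 3 had the highest level of its group for 9, the exception being Kif18a, and the lowest was in TKO replicate 1 for 7 members and TKO replicate 2 for 3. The summed normalized counts of the members were 800.4, 878 and 1381 in the TKO and 4562, 3741 and 2448 in the DKO. The nearest libraries across the groups were DKO replicate 3 at 2448 and TKO replicate 3 at 1381. The member closest to the mean profile over the 6 libraries was Kif4, with a root-mean-square difference of 0.03 log2 units, and the farthest was Kif23, with 0.69. The order of libraries is not particular to the kinesins. Mitosis genes that are not kinesins had mean centred log2 counts of -2.01, -1.30 and -0.40 in the TKO. In the DKO they were at 1.64, 1.38 and 0.68. For S phase genes the values were -1.36, -0.88 and -0.24 in the TKO and 1.07, 0.96 and 0.46 in the DKO. The share of all genes with this order was not computed here.

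Levels of different genes were compared per kilobase of the longest annotated transcript. In the DKO, Kif11 was highest at 157 ± 58.9 normalized counts per kilobase, followed by Kif20a at 144 ± 41.8 and Kif22 at 116 ± 19.6. Kif14 was lowest at 21.2 ± 7.08. In the TKO, Kif20a led at 56.1 ± 9.89 and Kif22 followed at 48.5 ± 10.5, then Kif11 at 26.2 ± 13.5 and Kif14 again lowest at 9.08 ± 3.70 (SD, n = 3 throughout). Between neighbours in either order the ranges over libraries overlapped in every case. The order rests on the length used: per kilobase of the median annotated transcript, Kif22 (619), Kif4 (530.3) and Kif23 (498) were highest in the DKO, against 190.4 for Kif11 and 175 for Kif20a.

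Most other kinesins with a role in division fell as well, and the remaining motors were not called. Of 5 other kinesins with a described role in division, 4 could be tested and 3 fell: Kif18b, Kifc1 and Cenpe. Kif18b, of the same subfamily as Kif18a, had a log2 fold change of -2.77 (adjusted p = 0.0109, edgeR). Kifc1, which focuses the poles, was at -1.53 (adjusted p = 0.00780) and Cenpe, which moves chromosomes to the spindle equator, at -1.51 (adjusted p = 0.0122). Kif2a, the most abundant of them and also used by neurons, had 1326 ± 91.3 normalized counts in the TKO and 1182 ± 160 in the DKO, a log2 fold change of 0.17 (adjusted p = 0.319). Without TKO replicate 2, 1 of these genes was called.

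None of the 25 other kinesin motors that could be tested, most of them carriers of cargo along axons and cilia, was called lower or higher. In edgeR, 3 had an unadjusted p under 0.05 on the lower and 4 on the higher side, and DESeq2 called 0. The share of all genes at that unadjusted p was not computed here, so these counts have no background beside them. By the adjusted p alone, 0 of the 25 were lower, against 9.20% of all genes. Without TKO replicate 3, Kif7, a kinesin of the primary cilium, was called lower, with a log2 fold change of -1.04. Their median log2 fold change was 0.13, and -0.03 when libraries were scaled by total counts alone. Kif1a, the motor of synaptic vesicle precursors, was at 12337 ± 1161 in the TKO and 10428 ± 850.4 in the DKO (log2 fold change 0.24, adjusted p = 0.172). Kif1b, its close relative, was at 13566 ± 2313 and 8196 ± 1412 (0.73, adjusted p = 0.0228), and Kif5c, a neuronal form of conventional kinesin, at 5624 ± 492 and 5910 ± 228 (-0.07, adjusted p = 0.644). By the adjusted p alone, which 7.35% of all genes passed on the higher side, 3 of these motors rose: Kif1b, Kif3b by 0.47 (adjusted p = 0.0301) and Kif21b by 0.76 (adjusted p = 0.0492). Kif3b and Kif21b were named after their values were seen, and with total-count scaling their adjusted p values were 0.0573 and 0.0619. All 3 lost significance without DKO replicate 1, DKO replicate 2, TKO replicate 1 or TKO replicate 2, with adjusted p values between 0.0673 and 0.167.

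Of 5 accessory subunits that link motors to cargo, 0 were called in edgeR or DESeq2, with 0 lower and 3 higher at an unadjusted p under 0.05. These counts too have no share of all genes beside them. Klc1 had a log2 fold change of 0.07 (adjusted p = 0.668, edgeR), Kifap3 of 0.02 (0.900) and Klc2 of 0.38 (0.0567). By the adjusted p alone, which 7.35% of all genes passed on the higher side, 1 of the 5 rose. It was Klc4, by 0.69 on the log2 scale (adjusted p = 0.0114, edgeR). Its adjusted p was 0.0560 without DKO replicate 2 and 0.0545 without TKO replicate 2. The mitotic kinesins took 1.14, 1.41 and 2.22% of the counts of all kinesin motors in the TKO libraries and 7.69, 6.99 and 4.22% in the DKO libraries, with no overlap between groups.

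**Figure D3:**
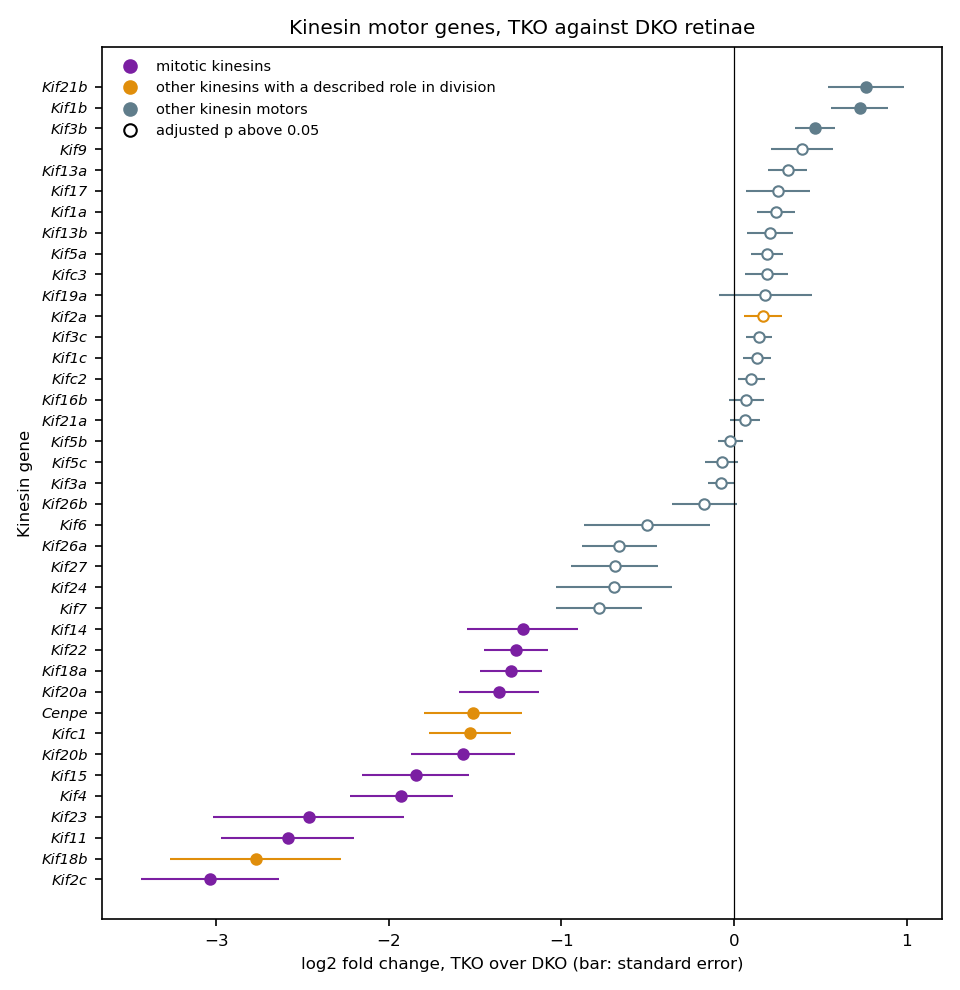
Log2 fold change of TKO over DKO (horizontal axis, with bars of 1 standard error) for each kinesin motor gene tested (vertical axis). The 10 mitotic kinesins (purple) lie between -3.04 and -1.23, and the 25 other motors (grey) between -0.78 and 0.76. Open circles have an adjusted p above 0.05.

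Genes that work with the members were grouped in 3 lists of partners, and of their 39 genes 30 were called lower and 0 higher. Of 12 midzone and cytokinesis partners, 10 were called lower and 0 higher, with a median log2 fold change of -2.40, and 7 were called without TKO replicate 2. Racgap1, which joins Kif23 in centralspindlin, fell by 2.01 on the log2 scale (adjusted p = 0.00953, edgeR), from 1186 ± 392 to 295 ± 134 normalized counts. Prc1, the bundling protein that recruits Kif4 and Kif14, fell by 2.82 (adjusted p = 0.00680), from 900.0 ± 268 to 128 ± 71.5. Incenp, the scaffold of the passenger complex that Kif20a carries, fell by 0.88 (adjusted p = 0.00766), less than the fold the call requires. Cit, citron kinase, the partner of Kif14, was at 307 ± 39.9 in the TKO and 319 ± 38.1 in the DKO (log2 fold change -0.06, adjusted p = 0.803), and was named after its values were seen.

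Of 15 spindle assembly partners, 9 were called lower and 0 higher, with a median of -2.08, and 5 were called without TKO replicate 2. Tpx2, which targets Aurora A and Kif15 to the spindle, fell by 2.59 (adjusted p = 0.00733, edgeR) and was also named after its values were seen. The 3 most abundant genes of this list did not pass: Ckap5, a microtubule polymerase, at a log2 fold change of -0.04 (adjusted p = 0.861), Numa1, a pole protein, at -0.08 (0.653), and Nek9, a kinase upstream of Kif11, at 0.09 (0.629). Of 12 chromosome and kinetochore partners, 11 fell past the call, their median was -2.30, and 7 passed without DKO replicate 1, DKO replicate 2 or TKO replicate 2. Mapre1, the plus-end protein EB1, fell by 0.62 (adjusted p = 0.00780). The condensin subunits Ncapd2 and Smc4, on whose complex Kif4 depends, fell by 1.64 (adjusted p = 0.00700) and 1.10 (adjusted p = 0.0113).

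Of 16 regulators of mitotic transcription, 6 were called lower and 0 higher, with a median log2 fold change of -0.42. The 6 were E2f1, E2f2, E2f7, E2f8, Foxm1 and Mybl2, the last of which encodes B-MYB, and their log2 fold changes ran from -2.48 in Foxm1 to -1.80 in E2f1. The most abundant regulators were Rbbp4, a histone-binding MuvB subunit, at a log2 fold change of -0.20 (adjusted p = 0.114, edgeR), Rbl2, which encodes p130, at 0.31 (adjusted p = 0.0218), and Tfdp1, the partner of E2F proteins, at -0.55 (adjusted p = 0.0103). Rbl2 had an adjusted p of 0.184 with total-count scaling, and of 0.0689 to 0.0915 when DKO replicate 1 or 2 or TKO replicate 1 or 2 was left out. The count for this list rested on the library set: 2 passed when DKO replicate 1 was left out, 1 when DKO replicate 2 was and 0 when TKO replicate 2 was. Over all genes tested, these fits called 360, 350 and 312 lower, against 741 with every library.

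General genes of mitosis and of DNA replication gave the scale for the kinesins. Of 10 mitosis genes that are not kinesins, 9 fell and their median was -2.57, and without TKO replicate 2 the count was 5. The most abundant were Top2a (topoisomerase II) at a log2 fold change of -3.21, Mki67 (Ki-67) at -2.52 and Ccna2 (cyclin A) at -1.32. Of 10 S phase genes, 10 fell and their median was -1.46. Pcna, the sliding clamp, Rrm1, a subunit of ribonucleotide reductase, and Mcm6, of the replicative helicase, had values of -1.27, -1.30 and -2.12. For S phase genes the count was 6 without DKO replicate 1 or DKO replicate 2 and 4 without TKO replicate 2.

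Set against the 10 mitosis genes within each library, the summed kinesins took a larger part in the TKO. The log2 ratio of their sums was -0.54, -0.97 and -1.06 in the TKO and -1.42, -1.26 and -1.26 in the DKO. The sum of the mitosis genes is weighted to the abundant ones. In DKO replicate 1, Top2a (3944) and Mki67 (3514) led its 12231 normalized counts. In TKO replicate 1 they were 132 and 166 of 1164, and Ccna2 was largest at 401. How far the ratio follows these genes was not tested. The TKO libraries were all above the DKO libraries, by 0.46 on average and by 0.30 without TKO replicate 1, with an exact two-sided permutation p of 0.1, the smallest that 3 against 3 can give. The summed mitosis genes were at 1164, 1724 and 2870 normalized counts in the TKO and 12231, 8990 and 5882 in the DKO. A gene that fell less than this sum, or did not fall, is therefore higher in the ratio. The share of all genes that are higher in this way was not computed here. Members did not all share the direction of the summed kinesins. Kif14, Kif22, Kif18a, Kif20a, Kif20b, Kif15 and Kif4 were higher relative to the mitosis genes in all 3 TKO libraries, by 1.02 (Kif14) to 0.33 (Kif4). Kif2c and Kif11 were lower in all 3, by -0.90 and -0.36, and Kif23 overlapped between groups, with a difference of -0.51. With the S phase genes as the measure, the summed kinesins differed by -0.24 the other way and overlapped (exact permutation p = 0.2), while Kif2c (-1.60), Kif23 (-1.21), Kif11 (-1.06), Kif4 (-0.37) and Kif15 (-0.27) were below in all 3 TKO libraries.

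**Figure D4:**
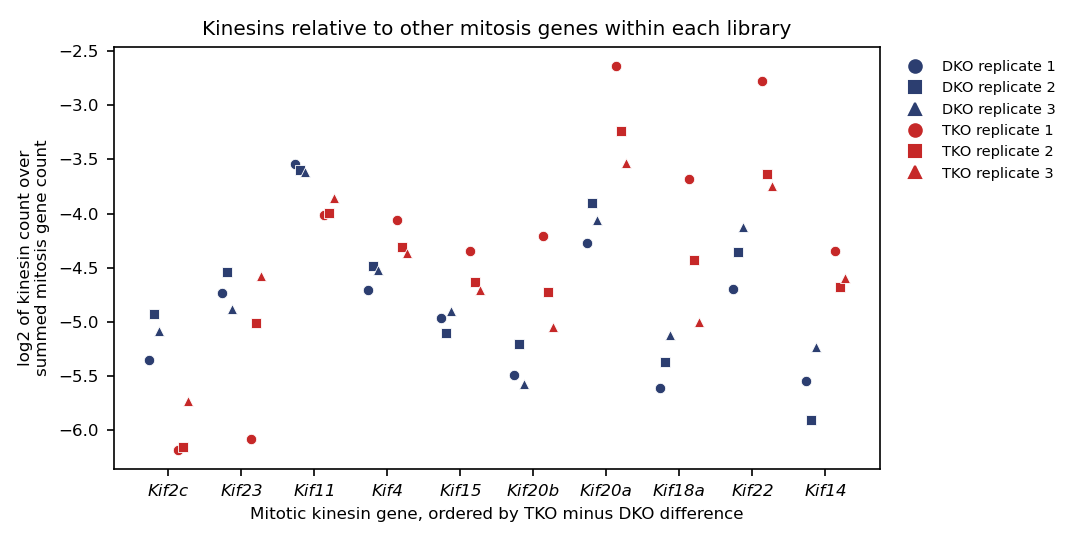
Log2 ratio of each mitotic kinesin to the summed counts of 10 other mitosis genes in the same library (vertical axis) for the 3 DKO (blue) and 3 TKO (red) retinae, with genes ordered by the TKO minus DKO difference. Kif2c and Kif11 are lower in every TKO library, Kif23 overlaps, and the other 7 are higher in every TKO library. The summed mitosis genes fell too, so a gene that fell less than they did is higher here.

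Markers of several cell types differed between the groups too, some in the direction of the kinesins and more in the other. The summed normalized counts of 6 rod markers were 311236 to 640344 in the TKO and 106043 to 202541 in the DKO, and 6 of 6 were called higher. Retinal progenitor markers summed to 47.0 to 117 in the TKO and 299 to 508 in the DKO, with 1 of 4 called lower, Neurog2, and with at most 5 reads of Atoh7 in any library. Neurog2 made up most of this sum, at 49.6 ± 14.7 in the TKO and 349 ± 86.6 in the DKO. Sfrp2, Fgf15 and Atoh7 each overlapped between the groups. Microglia markers, from immune cells of the retina that can divide, summed to 650.2 to 1043 and 1200.1 to 1760 (TKO, then DKO), with 3 of 5 called lower. Muller glia markers summed to 41478 to 50141 and 24595 to 27231, with 1 of 4 called higher. It was Glul, which made up most of this sum, at 31230 ± 3862 and 14069 ± 1445. Log2 fold changes of the others were 0.76 for Rlbp1, 0.28 for Aqp4 and -0.12 for Slc1a3. Endothelial markers summed to 1096 to 1243 and 763 to 1083, with 0 of 5 called. Lens markers summed to 333 to 2057 and 89.3 to 94.1, with 2 of 6 called higher, and the 2057 was TKO replicate 2. Removal of this library cost most member calls, and it also left the fewest genes called lower over all genes, 312 against 741. A link between the lens counts and these calls was not tested. None of these 6 lists had a gene at 0 in all libraries. Cone markers summed to 5445 to 15058 and 3778 to 6167, with 2 of 5 called higher, and pigment epithelium markers to 475 to 2371 and 87.5 to 836, with 1 of 4. Of 3 red blood cell markers, the haemoglobin genes Hba-a1 and Hbb-bs were at 0 in all libraries, while Alas2, a heme synthesis enzyme, was called higher, at 40.9 ± 2.04 normalized counts in the TKO and 11.97 ± 3.15 in the DKO (log2 fold change 1.77, adjusted p = 0.00942, edgeR). Of bipolar, amacrine, horizontal and ganglion cell markers, 0 were called. The part of these cell types in the kinesin result was not tested. The plot of list levels by library shows the kinesins beside these lists.

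**Figure D5:**
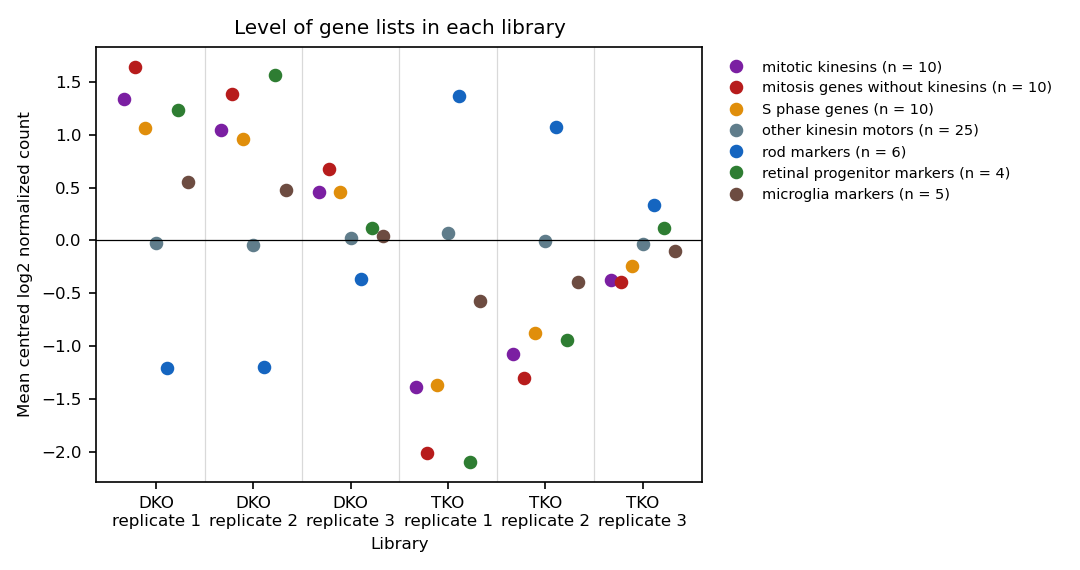
Mean centred log2 normalized count (vertical axis) of gene lists in each of the 6 libraries (horizontal axis), where 0 is the mean of a gene over all libraries. Mitotic kinesins run from -1.39 in TKO replicate 1 to 1.33 in DKO replicate 1, rod markers lie on the other side of 0 in every library, and the 25 other kinesin motors stay between -0.04 and 0.07.

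Some members share transcribed sequence with other genes. The library kit keeps strand, but the strand setting of the counting is not given in the sources used here, so reads of a gene and its antisense partner cannot be told apart with certainty. Exons of Kif20a (chromosome 18, 34624613-34633277, plus strand) overlap those of Cdc23 on the other strand over 1271 bases. Cdc23, a subunit of the anaphase-promoting complex, was at 1191 ± 50.8 normalized counts in the TKO and 1448 ± 75.0 in the DKO, a log2 fold change of -0.28 (adjusted p = 0.0403, edgeR). Kif4 (chromosome X, 100625737-100727214, plus strand) overlaps Pdzd11 over 832 bases, and Pdzd11 was at 556 ± 29.1 and 564 ± 9.37 (log2 fold change -0.02, adjusted p = 0.878). Kif18a shares 11 exonic bases with Mettl15 (log2 fold change -0.24, adjusted p = 0.402) and Kif22 shares 96 with the antisense gene Gm31749, which was not analysed here. The processed copy Kif4-ps had 0 counts in all 6 libraries.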

How the data were processed

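RNA-seq libraries of 6 P21 retinae were analysed, 3 labelled Rb1/p107/Hells (TKO) and 3 labelled Rb1/p107 (DKO). The deposited values are raw counts of reads per gene, made by the authors from paired-end reads of a stranded mRNA kit and not normalized. The study's methods name STAR and HTSeq on GRCm38 and allow reads with more than 1 alignment, whereas the submitters' processing notes name TopHat2, featureCounts and DESeq2 on mm10/GRCm38, and which of these made the table was not settled here. Neither gives the strand setting of the counting. Total counts ran from 10343907 to 14203098 per library. The study gives n = 3 mice per genotype and each column has its own identifier, so the libraries were taken as separate animals. Whether retinae were pooled within a library is not given in the sources used here. No pair of replicates was as alike as counting error alone would make it (chi-square over degrees of freedom from 8.61 to 25.3).

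After removal of genes whose counts summed to less than 10, 16904 were tested. Counts were scaled by TMM, and edgeR 4.0.16 (R 4.3.3) fitted glmQLFit and glmQLFTest with genotype as the only term and Benjamini-Hochberg adjustment over all genes tested. The script was tested on simulated data. A gene was called with an adjusted p of at most 0.05, a log2 fold change of at least 1 in size and at least 10 normalized counts on average. Alternatives were DESeq2 1.42.0, other scalings, filters, thresholds and dispersion settings, a replicate block, and leaving out each library. The 10 members and the gene lists were chosen with earlier results of these data known, so their counts are descriptions. Named genes are all members, Hells, the 3 genes of largest mean count in each list and any called higher, and the 5 genes of most similar profile. Beside exceptions marked in the text, Kif18b, Kif7, Kif26b, Neurog2, Alas2, Klc4, the regulators called lower and the overlapping genes were named after their values were seen. So were the other retinal progenitor markers and the Muller glia markers. Positions and transcript lengths are from a GENCODE annotation of GRCm38, which held 22750 of 24062 symbols (94.5%). Promoter windows are from RefSeq (GRCm38.p6). The promoter of Kif20a was not used here, and 1 retinal progenitor marker is not reported here and was left out of its list.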

Additional observations from a re-analysis of the deposited data

How the results depend on the processing

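Over 90 pairs of a member and another scaling, filter, tool, dispersion setting or block, all with every library and the same thresholds, 79 kept direction and call, 11 lost the call and 0 reversed, and with the fits that left out a library it was 127, 23 and 0 of 150. DESeq2 called all 10 members (adjusted p from 1.42e-13 to 0.0124). With total-count scaling the median over all genes was -0.17 in place of -0.01 and that over the members -1.86 in place of -1.71 (log2 fold changes), and all 10 stayed called. Over all 16904 genes tested, DESeq2 called 803 lower and 354 higher. Total-count scaling called 983 lower and 247 higher, against 741 and 333 in the main fit.

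Correlations of same-numbered deviations were 0.05, -0.05 and -0.16, and 1 of 6 libraries correlated best with its own number. No pairing by replicate number was seen in these values, but with 3 libraries per group they cannot exclude one. With the replicate number as a block, 0 members were called (adjusted p 0.0556 to 0.0997), with 10 of 10 at an unadjusted p under 0.05. Over all 16904 genes tested, the block fit called 75 lower and 15 higher, against 741 and 333 without the block. The share of all genes at that unadjusted p was not computed here. The block also gave 0 for every list, where the genes on the lower side with an unadjusted p under 0.05 were 3 of other division kinesins, 3 of other motors, 0 of accessory subunits, 11 of midzone, 10 of spindle, 12 of chromosome, 10 of regulator, 9 of mitosis and 10 of S phase genes. A test against a fold change of 1.5 (glmTreat) called 6 members, 3 regulators and 4 S phase genes. Over all genes tested it called 319 lower, against 741 in the main fit. At an adjusted p of 0.01 the calls were 7 members, 1 division kinesin, 8 midzone, 6 spindle and 7 chromosome genes, 0 regulators, 5 mitosis genes and 4 S phase genes. The number of all genes called at this threshold was not computed here.

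Leaving out 1 library gave 5 to 10 members, 1 to 3 division kinesins, 0 to 1 other motors and 7 to 10 midzone genes. It also gave 5 to 9 spindle, 7 to 11 chromosome, 0 to 6 regulator, 5 to 9 mitosis and 4 to 10 S phase genes. Over all genes tested, these fits called 312 (without TKO replicate 2) to 1024 (without TKO replicate 3) lower, against 741 with every library. The ratio of summed kinesins to mitosis genes, 0.46, was -0.24 with S phase genes as the measure. The causes were not tested. The lowest member counts were 14 reads of Kif2c and 15 of Kif23, both in TKO replicate 1.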

Other observations

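Among 14802 genes that are neither members nor in the lists, the profiles most like the mean of the mitotic kinesins over the 6 libraries were those of Nfib, Mms22l, 6720489N17Rik, Espl1 and Atad2. The likeness is the root-mean-square difference of centred log2 normalized counts, which was 0.08, 0.09, 0.09, 0.09 and 0.10 log2 units. Their log2 fold changes were -1.78 for Nfib, a transcription factor of glia and late retinal progenitors, -1.92 for Mms22l, which acts in recombination at stalled replication forks, -1.96 for 6720489N17Rik, -1.85 for Espl1, the separase that cuts cohesin at anaphase, and -1.97 for Atad2, a bromodomain ATPase. They were chosen for their likeness over these libraries, so the values are a description.

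The CHR within 30 bases of the start was counted in the other lists too. It was found in 1 of 19 other kinesin motors with a window (Kif26b), 2 of 5 other division kinesins (Kif18b and Kifc1), 6 of 9 midzone and cytokinesis partners, 5 of 9 mitosis genes, 4 of 14 spindle assembly partners, 2 of 13 regulators, 1 of 11 chromosome and kinetochore partners, 0 of 4 accessory subunits and 0 of 9 S phase genes. Of the chromosome and kinetochore partners, 11 of 12 were called lower. Kif26b was at 198 ± 52.6 normalized counts in the TKO and 223 ± 8.12 in the DKO (log2 fold change -0.17, adjusted p = 0.560, edgeR). Kif2c, Kif14 and Kif18a were called lower with no CHR within that distance of the RefSeq start used. For Kif2c and Kif14 that start lies 3867 and 1505 bases inside the GENCODE gene, so their outermost start was not searched. Whether the CHR bears on the fall of any of these genes was not tested.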
